A study of Acipenser sinensis with 45 samples.

Results

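The stage II testis (MG) was set against the stage I gonad (UG) of Chinese sturgeon (*Acipenser sinensis*), a large anadromous fish. Libraries were chosen by their sample labels: 6 MG libraries from 6 males over 4 years old, whose gonads were in stage II, and 6 UG libraries from 6 fish aged 1 year, whose gonads were in stage I and whose sex was unknown, which is 12 of the 45 libraries of the series. The fish on both sides are different individuals of an artificial breeding population, none was treated, and no pairing exists between them. Since stage, age and known sex change together, they cannot be told apart in this comparison, and a UG library may come from a fish that would have become a male or a female. Hypothalamus (H) and pituitary (P) libraries of the same fish (MH and MP, UH and UP) and the libraries of 3 stage II females (FG, FH and FP) were used only to show where the gonad differs. The libraries of male fish 4 from hypothalamus and pituitary have labels that conflict on the tissue and were not used, which left 5 MH and 5 MP libraries against 6 UH and 6 UP libraries.

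The gonad is the last member of the hypothalamus-pituitary-gonad axis: the hypothalamus signals to the pituitary, whose gonadotropins act on the gonad, and the gonad makes germ cells and sex steroids. A stage I gonad has not yet taken a form from which the sex can be read in sections, while a stage II testis can be recognised and holds spermatogonia, the dividing germ cells from which sperm later arise. Both are mixtures of germ cells, supporting cells, steroid-making cells, blood and connective tissue, so in whole-tissue RNA fewer cells of a type and less RNA per cell cannot be told apart.

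The level of a transcript was given as FPKM, the number of fragments scaled to the transcript's length and to the mapped fragments of the library, for 121952 unigenes assembled from the reads without a genome. The files used here do not pair a unigene with a gene name, and of the identifiers 0 were found among 78555 RefSeq genes of the species, so neither the tissue markers nor named pathways could be looked up. In place of markers, each library was compared with all others, and the nearest library by Pearson's correlation was of the same group for 12 of 12. The table holds no read counts. A relative depth read from the lowest FPKM values was 0.943 to 1.04 in MG and 0.788 to 1.047 in UG, with UG replicate 1 the lowest (exact two-sided permutation test, p = 0.957).

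The stage II testis libraries held a wider range of transcripts than the stage I gonad libraries, with less of their summed FPKM in a few very abundant ones. Unigenes at 1 FPKM or more numbered 83112, 80190, 76558, 80190, 80674 and 77351 in the MG libraries, against 60651, 73873, 64347, 60543, 71867 and 59271 in the UG libraries. Every MG library was above every UG library, and UG replicates 2 and 5 were nearest to MG. The means were 79679 ± 2386 in MG and 65092 ± 6291 in UG (SD, n = 6 each; exact two-sided permutation test over 924 arrangements, p = 0.0021645, the smallest they can give, adjusted p = 0.002886 over 4 measures per library). With a minimum of 5 FPKM the groups overlapped, with 28142 ± 1549 unigenes in MG and 21826 ± 3143 in UG (SD, n = 6 each; exact p = 0.004329). Unigenes listed at 0 numbered 7251 to 9226 in MG and 11519 to 26345 in UG, where UG replicate 1, the library of lowest relative depth, had the most (exact p = 0.0021645, adjusted p = 0.002886). The other UG libraries had 11519 to 19928, still above every MG library.

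**Figure D1:**
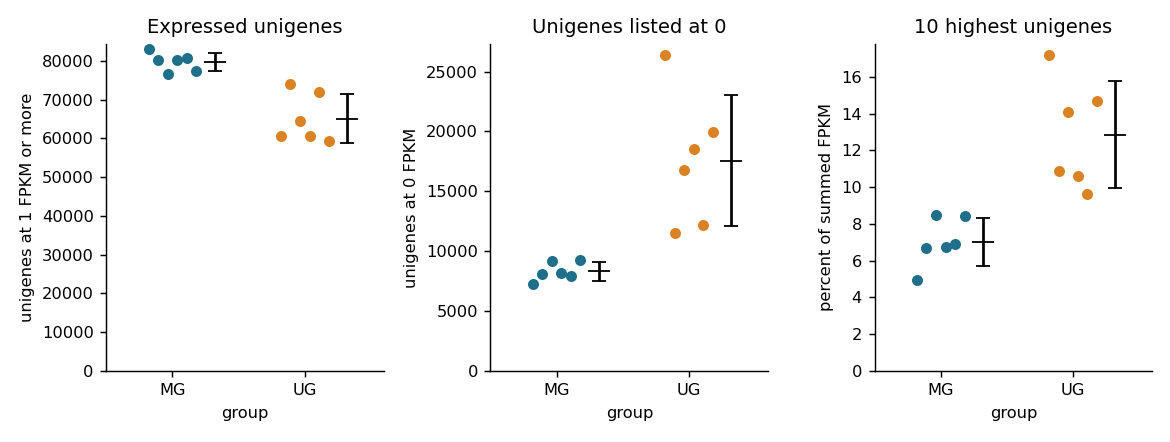
Values per library in the stage II testis (MG, left) and the stage I gonad (UG, right): unigenes at 1 FPKM or more, unigenes listed at 0 FPKM, and the percent of summed FPKM in the 10 highest unigenes of each library. Points are libraries, and bars beside them are means with SD (n = 6 each); in all 3 panels the MG and UG points do not overlap.

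The 10 highest unigenes of a library held 4.93% to 8.46% of its summed FPKM in MG and 9.63% to 17.2% in UG (exact permutation p = 0.0021645, adjusted p = 0.002886, n = 6 each). The number of unigenes needed to reach 50% of the summed FPKM was 7497, 5616, 3556, 5759, 5631 and 4532 in MG, against 385, 2502, 430, 768, 2631 and 536 in UG. Again MG and UG did not overlap, and UG replicates 2 and 5 lay nearest to MG. FPKM is a share of a library, so a group with more RNA in a few unigenes shows lower values for the rest. Median-of-ratios scaling, which sets the median unigene level over the 12 libraries, gave size factors of 1.146 to 1.31 in MG and 0.777 to 1.08 in UG. Values as given and scaled are therefore reported side by side. On the scaled values the unigenes at 1 or more numbered 74698 ± 1303 in MG and 68155 ± 2884 in UG (SD, n = 6 each; exact permutation p = 0.0021645).

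The testis libraries were more alike than the stage I gonad libraries. The distance between libraries, taken as 1 minus the Pearson correlation over unigenes on the log2(FPKM + 1) scale, averaged 0.0798 ± 0.0118 within MG and 0.163 ± 0.0357 within UG (SD over 15 pairs each, which share libraries). It averaged 0.214 between MG and UG over 36 pairs. The distance to the ovary of stage II females was 0.481 from MG and 0.508 from UG (18 pairs each). By this measure MG and UG lay nearer to each other than to the ovary libraries. Most of these ovary libraries, however, were sequenced with longer reads than MG and UG. The paper also reports marked differences among female replicates and names different families as a possible reason. The part of read length and family in the distances to the ovary was not tested, so they do not tell which sex the stage I gonad resembles. The mean distance of a UG library to the 6 MG libraries was 0.228, 0.1499, 0.193, 0.261, 0.160 and 0.291 for replicates 1 to 6. Their mean distance to the other UG libraries was 0.178, 0.1485, 0.141, 0.184, 0.156 and 0.173. UG replicates 2 and 5 thus lay about as near to MG as to the other UG libraries. On the first principal component, which held 44.997% of the variance over 89239 unigenes, MG scored 88.0 to 139 and UG replicates 1 to 6 scored -147.5, -26.1, -111, -171, -33.0 and -207. The SD of a unigene's log2(FPKM + 1) had a median of 0.311 in MG and 0.541 in UG, and was higher in UG for 83.7% of 77848 unigenes (scaled, 0.292 in MG, 0.548 in UG and 87.1%). The paper lists a wider range of read GC content for the UG libraries than for MG, and shorter unigenes when each library was assembled alone. On the second principal component, which held 13.5% of the variance, the UG libraries lay in the reverse order of their GC content. On the first component they did not follow it: replicates 5 and 6, of nearly equal GC content, scored -33.0 and -207. The part of these library differences in the spread, in the unigene counts per library and in the calls between MG and UG below was not tested.

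**Figure D2:**
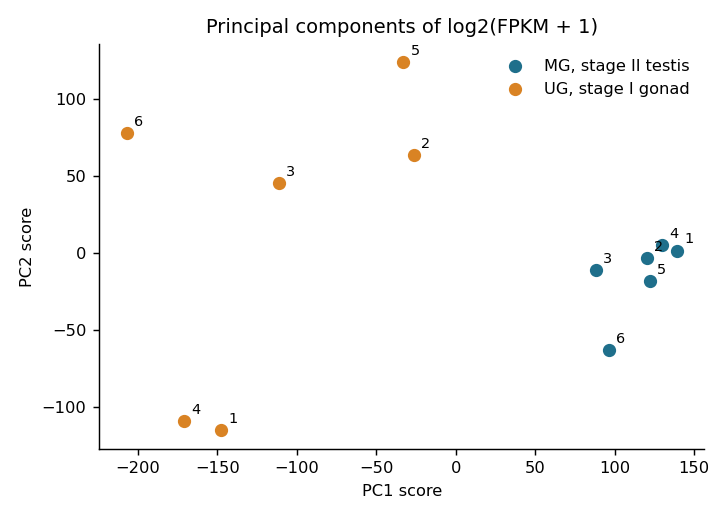
Scores of the 6 stage II testis (MG) and 6 stage I gonad (UG) libraries on the first and second principal components of log2(FPKM + 1), with replicate numbers beside the points. MG lies together at 88.0 to 139 on PC1, while UG is spread from -207 to -26.1.

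Unigenes were tested where 6 or more of the 12 libraries reached 1 FPKM. Of these 77848, 24191 were higher in MG than in UG (31.1% of those tested) and 4816 were lower (6.19%), by limma on log2(FPKM + 1) with a Benjamini-Hochberg adjusted p under 0.05. On the scaled values the split was nearly even: 10956 were higher (14.1%) and 9480 lower (12.2%). Scaling by the median ratio itself centres the differences, so a nearly even split largely follows from it and is no separate result. Scaling divides each library by 1 factor and so moves the differences the same way: it removed the call of 13235 unigenes that were higher as given and added 4664 lower ones, which left 10956 higher and 4816 lower on both scales. The median difference over all unigenes tested was 0.39 as given and 0.06 scaled on the log2 scale, so the excess of higher unigenes as given goes with this shift. These differences, on the log2(FPKM + 1) scale, understate the change of low unigenes.

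The groups did not overlap for 9987 unigenes with MG above UG (12.8% of those tested) and for 1877 with MG below UG (2.41%). On the scaled values these counts were 4518 above and 4536 below. With a difference of at least 1 on the log2 scale on both scales, 5111 unigenes were higher and 2660 lower. At 3 or more on both scales, 26 unigenes were higher in MG and 86 lower, and at 5 or more 3 were higher and 2 lower.

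The direction went with the level of the unigene. The 77848 unigenes were grouped by their mean FPKM over all 12 libraries. Among 66280 unigenes at 1 to 10 FPKM, 20917 were higher in MG and 3180 lower as given (scaled, 9581 higher and 6665 lower). Among 9995 unigenes at 10 to 100 FPKM, 2686 were higher and 1430 lower as given, while on the scaled values 1080 were higher and 2553 lower, so that here the majority depended on the scale. Among 308 unigenes at 100 to 1000 FPKM, 40 were higher and 136 lower as given (scaled, 22 and 176). Of the 63 unigenes at 1000 FPKM or more, 0 were higher and 54 lower as given (scaled, 0 and 60). The last 2 classes thus had more lower than higher unigenes on both scales.

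**Figure D3:**
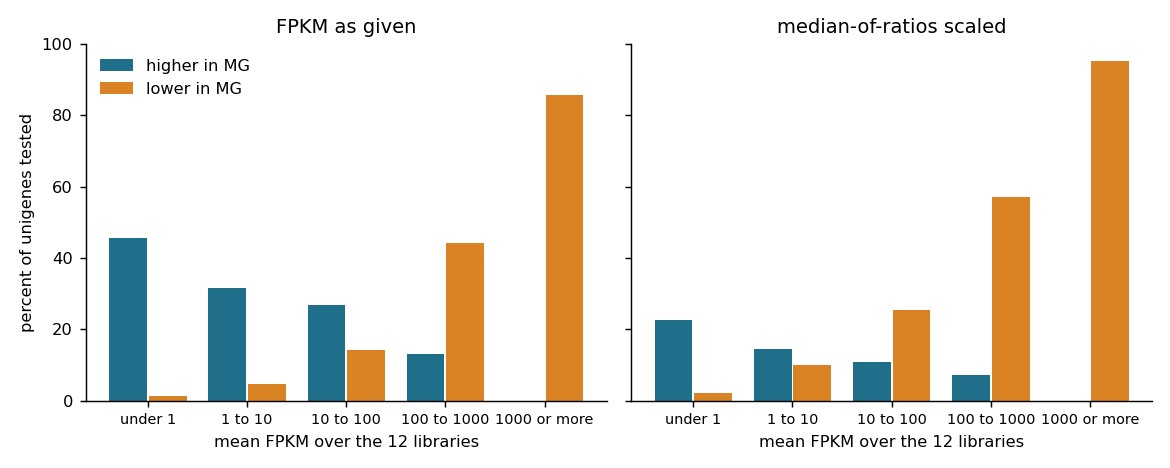
Percent of unigenes tested that were higher (left bar) or lower (right bar) in the stage II testis (MG) than in the stage I gonad (UG), by mean FPKM over the 12 libraries, for FPKM as given and median-of-ratios scaled. At 1000 FPKM or more, 54 of 63 unigenes were lower as given and 60 of 63 scaled; at 1 to 10 FPKM more were higher than lower on both scales.

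The 63 most abundant unigenes, at a mean of 1000 FPKM or more, held 12.5%, 17.2%, 21.6%, 16.6%, 16.7% and 18.9% of the summed FPKM in the MG libraries, against 36.0%, 25.2%, 33.8%, 27.9%, 23.9% and 33.4% in the UG libraries. The lowest UG library was above the highest MG library, with means of 17.2% ± 3.02 in MG and 30.0% ± 5.07 in UG (SD, n = 6 each; exact permutation p = 0.0021645, for a quantity chosen after its values were seen). Their differences ran from -3.33 to 0.12 as given and from -3.80 to -0.35 scaled. MG was below UG without overlap for 25 of them as given (35 scaled), against 2.41% of all unigenes tested (5.83% scaled). The group means had a median of 1425 FPKM in MG and 2615 FPKM in UG. In the hypothalamus the same 63 unigenes had medians of 408 FPKM in MH and 428 FPKM in UH, and in the pituitary 831 FPKM in MP and 899 FPKM in UP. Between these tissues of the same fish, 2 of 63 were higher and 2 lower in MH than in UH on both scales, against 5.55% higher and 7.26% lower of 79152 unigenes tested in the hypothalamus. Of the 63, 10 were higher and 0 lower in MP than in UP, against 6.35% higher and 13.1% lower of 80380 unigenes tested in the pituitary.

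A single unigene ranked first in all 12 libraries and another second in all 12. The first reached 6005, 13225, 19095, 12143, 10514 and 15200 FPKM in MG, against 35302, 20703, 27891, 22610, 15704 and 25976 FPKM in UG. The 2 groups overlapped, since MG replicate 3 was above UG replicate 5. Its difference was -0.9995 as given (SE 0.25, limma adjusted p = 0.00653) and -1.47 scaled (adjusted p = 0.00598). The second averaged 6656 ± 1840 FPKM in MG and 15967 ± 4981 FPKM in UG (SD, n = 6 each), with a difference of -1.24 as given (limma adjusted p = 0.00149) and -1.71 scaled. Against 31.1% higher and 6.19% lower of all unigenes tested as given, of the 100 highest unigenes of MG 10 were higher and 74 lower in MG, and of the 100 highest of UG 0 were higher and 87 lower, with 84 unigenes on both lists. On the scaled values 9 were higher and 81 lower of the first list, and 0 and 94 of the second. Each list was ranked on 1 side of the comparison, which favours unigenes higher on that side, so the counts are a description.

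The unigenes with the highest and lowest differences were named by a rule: adjusted p under 0.05, MG and UG apart in every library, and a group mean of at least 10 FPKM on the higher side, with 2 taken from each end. By it 2292 unigenes were eligible as higher and 1021 as lower. The rule used these values, so they are given as a description. The named unigenes also met the minimum of 1 FPKM in 6 libraries through their higher group alone. No p-value is therefore given for their gonad differences. Over the 25 highest, differences ran from 3.24 to 5.90, and over the 25 lowest from -5.42 to -3.63. All 50 of these were called on the scaled values too.

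Unigene73176_All was the highest. It reached 121.6, 103.0, 112.8, 29.0, 68.6 and 60.2 FPKM in MG, against 0, 3.11, 0, 0, 0 and 0 FPKM in UG. It was thus present in all 6 testes and listed at 0 in all stage I gonads except UG replicate 2. Its difference was 5.90 (SE 0.40) as given and 5.63 scaled. The brain and pituitary of the same fish had the same order: 12.01 to 25.4 FPKM in MH and 22.2 to 37.6 FPKM in MP, while in UH and UP only replicate 2 was above 0, at 0.265 FPKM in UH and 1.0501 FPKM in UP. The log2 difference was 4.15 in the hypothalamus and 4.82 in the pituitary, where the unigene passed the minimum of 1 FPKM through the male libraries, so no test is given. As given, the gonad difference exceeded that of the hypothalamus by 1.75 (SE 0.48) and that of the pituitary by 1.08 (SE 0.49). With stage I values near 0, this excess follows the male means: 82.5 FPKM in MG, 17.96 FPKM in MH and 31.5 FPKM in MP. The unigene was chosen for its gonad difference, so no test of the excess is given. All 9 libraries of the stage II females (FG, FH and FP) listed it at 0.

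CL23664.Contig6_All, a contig of a cluster of similar sequences, came next. It reached 52.1, 56.6, 143.8, 60.8, 158.2 and 64.4 FPKM in MG, against 0.542, 0.662, 0.575, 0.698, 2.30 and 0.557 FPKM in UG. Its difference was 5.49 (SE 0.31) as given and 5.13 scaled. In the other tissues it was also higher in the males, with 4.03 to 5.88 FPKM in MH and 0.553 to 1.90 FPKM in UH, and with 7.42 to 12.8 FPKM in MP and 1.43 to 3.76 FPKM in UP. As given, the gonad difference exceeded that of the hypothalamus by 3.94 on the log2 scale (SE 0.38) and that of the pituitary by 3.63 (SE 0.39). This contig too was chosen for its gonad difference, so no test of the excess is given. The ovary held 0.0654 to 1.41 FPKM. Contigs of a cluster may share reads, so its level is uncertain in that respect.

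Unigene81175_All was the lowest. It was listed at 0 in 4 MG libraries and at 0.449 and 0.247 FPKM in MG replicates 2 and 5, against 28.7, 17.5, 30.9, 100.0, 110.5 and 56.5 FPKM in UG. Its difference was -5.42 (SE 0.38) as given and -5.63 scaled. It was also lower in MH (0 to 1.13 FPKM) than in UH (2.60 to 27.7 FPKM), with a log2 difference of -2.71, and passed the minimum there through the UH libraries, so no test is given. In the pituitary the ranges overlapped, with 1.48 to 13.99 FPKM in MP and 5.30 to 17.5 FPKM in UP (difference -0.94, adjusted p = 0.0809). As given, the gonad difference went beyond that of the hypothalamus by -2.71 (SE 0.60) and beyond that of the pituitary by -4.48 (SE 0.58). No test of this is given, since the unigene was chosen for its gonad difference. The females held 0 to 0.282 FPKM in FG, 0.378 to 35.6 FPKM in FH and 1.13 to 31.5 FPKM in FP.

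Unigene52857_All was the second lowest. It was at 0, 0.253, 0.175, 0.178, 0.278 and 0.360 FPKM in MG, against 170.2, 35.8, 58.2, 17.9, 18.2 and 90.0 FPKM in UG. Its difference was -5.32 (SE 0.45) as given and -5.55 scaled. Its level parted males from stage I fish in the other tissues as well: 0 to 0.516 FPKM in MH and 8.97 to 62.2 FPKM in UH, and 0.0953 to 0.508 FPKM in MP and 13.0 to 44.9 FPKM in UP. The log2 difference was -4.43 in the hypothalamus and -4.31 in the pituitary, where the unigene passed the minimum through the stage I libraries, so no test is given. As given, the gonad difference went beyond these by -0.89 (SE 0.63) and -1.01 (SE 0.56). No test of this is given either, since the unigene was chosen for its gonad difference. Among the females, replicate 1 held 63.3 FPKM in FG, 1353 FPKM in FH and 4146 FPKM in FP, while replicates 2 and 3, sequenced with longer reads, were listed at 0 in all 3 tissues.

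**Figure D4:**
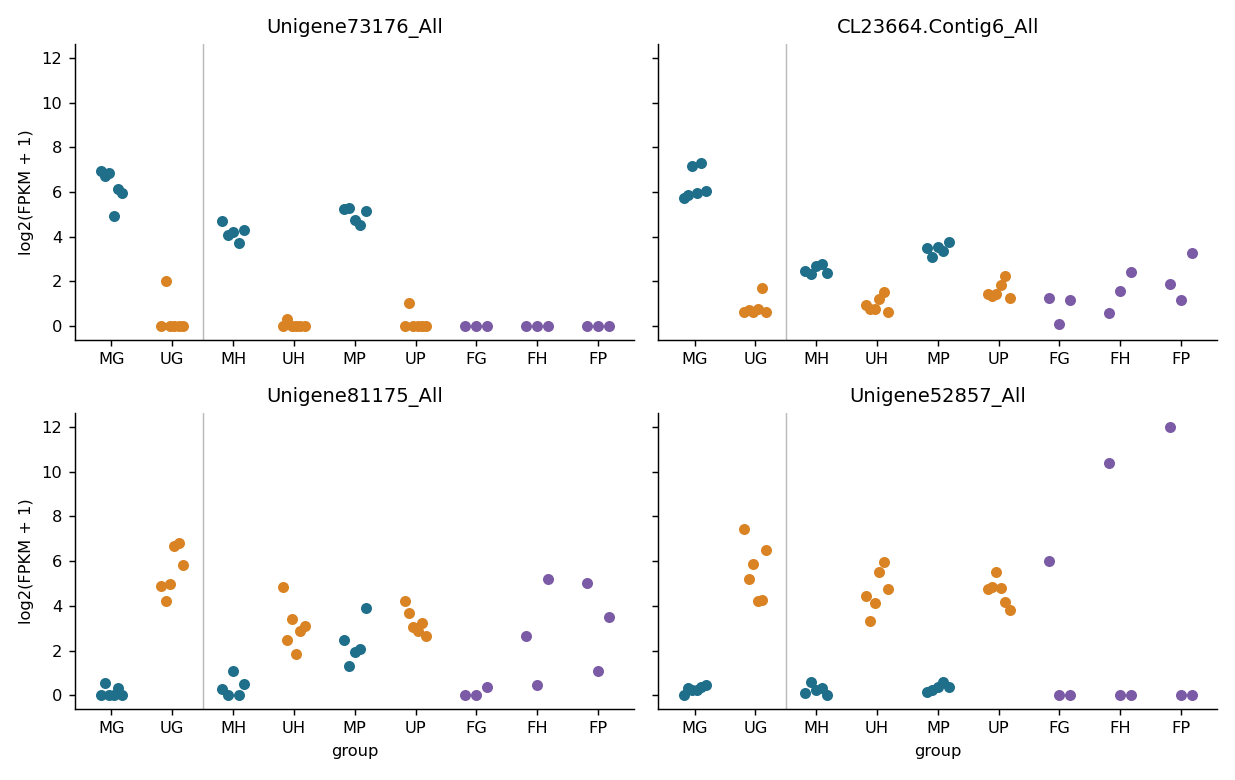
The 4 named unigenes in every library used, as log2(FPKM + 1), with the stage II testis (MG) and stage I gonad (UG) left of the line and the hypothalamus (MH, UH), pituitary (MP, UP) and female groups (FG, FH, FP) right of it. Each point is a library. Unigene73176_All, CL23664.Contig6_All and Unigene52857_All part males from stage I fish in all 3 tissues, while MP and UP overlap for Unigene81175_All.

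A set of 82 unigenes had differences of at least 3 on both scales, libraries of MG and UG apart, and a group mean of at least 10 FPKM on the higher side, with 20 higher and 62 lower in MG. The 20 had median levels over unigenes of 37.7 to 94.8 FPKM in the MG libraries, against 0.334 to 5.25 FPKM in the UG libraries. The 62 had medians of 0.982 to 1.77 FPKM in the MG libraries, against 18.3 to 40.7 FPKM in the UG libraries. Among the 9 groups of the series, MG had the highest mean for 20 of the 20, and UG for 44 of the 62. Over all unigenes tested, MG was highest for 31.9% and UG for 10.7%. The sets were chosen for high levels in MG or UG, which favours these counts, so they are a description. In the ovary 10 of the 20 and 22 of the 62 reached a mean of 1 FPKM, against 41.6% of all unigenes tested. The median of the FG means was 1.36 FPKM for the 20, 0.392 FPKM for the 62 and 0.642 FPKM for all unigenes tested. Contigs of clusters made up 16 of the 20 and 24 of the 62, against 51.8% of all unigenes tested.

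The same fish's brain and pituitary libraries, which had no part in choosing these unigenes, were examined for them too. Of the 20, 12 were tested in the hypothalamus, where 9 were higher and 0 lower in MH than in UH on both scales, and 11 in the pituitary, where 9 were higher and 0 lower in MP than in UP. Of the 62, 49 were tested in the hypothalamus, where 0 were higher and 32 lower, and 46 in the pituitary, where 1 was higher and 26 lower. Members below 1 FPKM in these tissues were not tested, and a member that is present on only one side passes that filter through the side where it is high, so these are counts and not support. Of all unigenes tested in the gonad, 63727 were tested in the hypothalamus, where 5.25% were higher and 7.52% lower, and 66548 in the pituitary, where 6.27% were higher and 12.8% lower. The wider calls are given beside the same shares. The limit of the filter holds for them too, so their shares are a description and not support. Of the 10956 unigenes higher in MG on both scales, 7776 were tested in the hypothalamus and 15.2% were higher there, with 1.38% lower. Of the 4816 lower on both scales, 4165 were tested and 1.46% were higher there and 30.5% lower. The shares in the pituitary were 16.4% higher and 3.69% lower for 7893 tested of the 10956, and 2.32% higher and 36.0% lower for 4350 tested of the 4816. The libraries of the 3 tissues come from the same fish and are not independent samples of stage and age.

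At the extreme were unigenes read in every library of MG or UG and listed at 0 throughout the other. With 1 FPKM or more in all 6 MG libraries and 0 in all 6 UG libraries there were 21 unigenes, and with the reverse 5. They are few beside the 35744 unigenes at 1 FPKM or more in all 12 libraries. The 21 were low, with medians per MG library of 2.38 to 3.83 FPKM. The highest of them reached 30.2, 20.4, 11.4, 37.1, 15.6 and 28.6 FPKM in MG. The 5 had medians per UG library of 3.37 to 10.02 FPKM. A 0 in an estimated table can be a failed estimate as well as absence, so no fold is given for them.

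The other tissues of the same fish were examined for these on-off unigenes, as a description, since they were chosen as all or none between these fish. Of the 21, 8 to 13 were at 1 FPKM or more in each MH library and 10 to 13 in each MP library, against 0 in every UH library and 0 or 1 in every UP library. By group means, 11 of the 21 reached 1 FPKM in MH, 12 in MP, and 0 in UH and UP. Of all unigenes tested in the gonad, 79.6% did in MH, 81.8% in MP, 80.0% in UH and 84.7% in UP. The ovary held 0 of the 21 at 1 FPKM or more, the female hypothalamus 0 or 1 per library and the female pituitary 0 to 2. Of the 5, by contrast, 0 reached 1 FPKM in any MH or MP library, while 4 or 5 did in every UH and UP library. In the females 1 to 3 of the 5 reached 1 FPKM in FG, 3 or 4 in FH and 2 to 4 in FP. The first of the 5 was very uneven there: female replicate 1 had 28.2 FPKM in FG, 449 FPKM in FH and 1565 FPKM in FP, and the other females were listed at 0, as for Unigene52857_All. In limma 6 of the 21 reached the minimum in the hypothalamus and 7 in the pituitary, and 4 of the 5 did in each tissue. They did so through the fish in which they are high, so their direction there was fixed by the filter and is no further result.

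**Figure D5:**
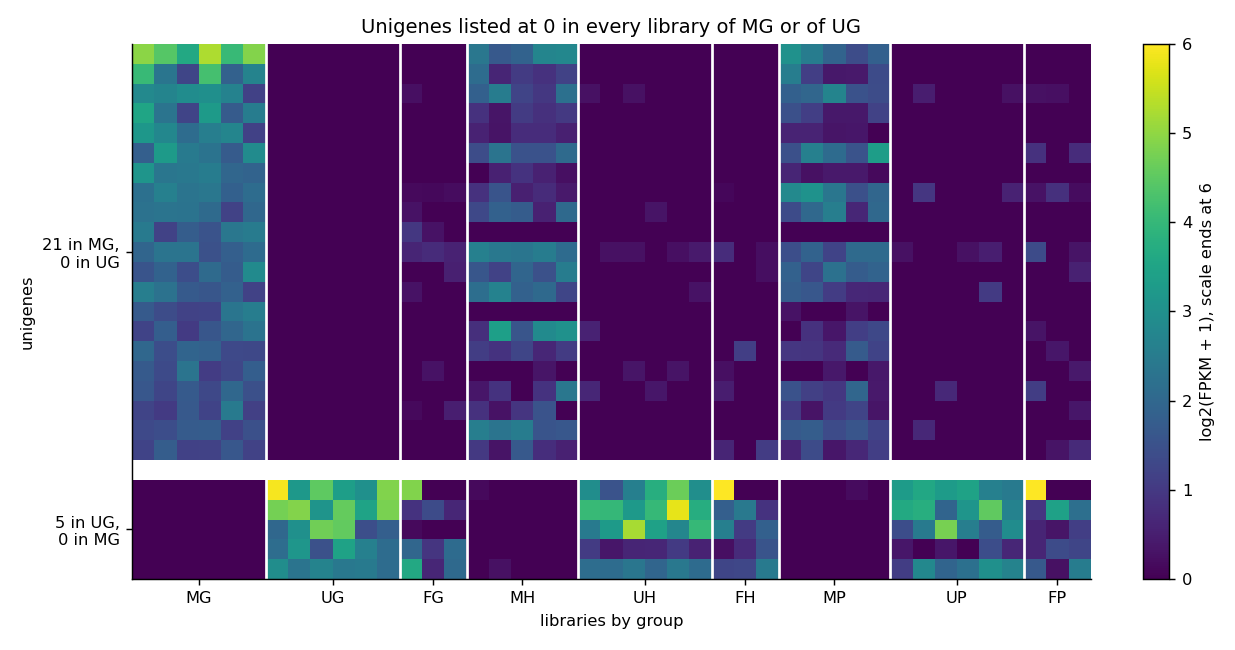
The 21 unigenes at 1 FPKM or more in every stage II testis library (MG) and at 0 in every stage I gonad library (UG), above, and the 5 with the reverse pattern, below, in all 43 libraries used, grouped by tissue and fish, as log2(FPKM + 1) with the colour scale ending at 6. In the upper block 11 of 21 unigenes had a mean of 1 FPKM or more in MH and 12 in MP, and 0 in UH and UP, and in the lower block 4 of 5 did in UH and in UP and 0 in MH and MP.

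Whether the difference between males and stage I fish was another one in the gonad than in the brain was tested for all unigenes as an interaction in limma. Against the hypothalamus, 97281 unigenes were tested: the gonad difference was higher for 16985 (17.5%) and lower for 2269 (2.33%). Against the pituitary, with 96199 tested, it was higher for 31571 (32.8%) and lower for 2362 (2.46%). As in the gonad alone, scaling evened the split, to 5655 higher and 4460 lower against the hypothalamus and to 6834 higher and 5676 lower against the pituitary. The pituitary itself shifted the other way as given, with 5102 of 80380 unigenes higher and 23076 lower in MP than in UP (median difference -0.25). The interaction as given therefore holds both shifts. In the hypothalamus as given, 4637 of 79152 were higher and 6464 lower in MH than in UH (median difference -0.008). Both interactions share the MG and UG libraries. These fits took libraries of the same fish as independent. With fish as a block, values as given had 15054 higher and 1890 lower against the hypothalamus. Against the pituitary they had 31549 higher and 2660 lower.

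Contigs of 1 cluster are variants of similar sequence, such as splice forms, alleles or close gene copies. Of 11533 clusters with 2 or more contigs tested, 3520 had 2 or more contigs called as given, and 220 of these (6.25%) held a contig higher and another lower in MG. On the scaled values 225 of 2119 did (10.6%), and 96 clusters did on both scales. The remaining clusters with 2 or more calls had 1 direction only. As given, 2924 had only higher and 376 only lower calls, and scaled 997 and 897. The most abundant contig of a cluster was another one in MG than in UG for 2680 of the 11533. Where both leading contigs reached 10 FPKM, it was another one for 257 of 1980 clusters, and for 9 of them the contig that led in MG was higher and the one that led in UG was lower on both scales. One of the 9 is shown as a description and without p-values, since the calls of both contigs chose it. It had the largest contrast between its 2 contigs among clusters where MG and UG did not overlap for either contig. In others of the 9 they overlapped. Its contig that led in MG reached 16.5 to 24.3 FPKM in MG and 4.38 to 9.73 FPKM in UG (difference 1.41, SE 0.21). The contig that led in UG reached 4.62 to 6.43 FPKM in MG and 11.0 to 136.0 FPKM in UG, where replicate 4 was the highest (difference -1.99, SE 0.43). Reads that fit both contigs may have been split between them, and their part in these counts was not tested.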

How the data were processed

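Total RNA of each tissue of each fish was sequenced as 1 mRNA library (reads of 90 nt for MG and UG). The authors filtered reads with SOAPnuke, assembled unigenes of all 45 libraries with Trinity and TGICL, mapped reads with SOAP2 and computed the deposited FPKM values with RSEM. The table has 121952 unigenes, 64643 of them contigs of clusters. FPKM is relative to each library's mapped fragments, so depth is removed and abundant unigenes lower the others. Number of libraries limits the precision.

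From it, unigenes that reached 1 FPKM in 6 or more of the 12 libraries were tested on log2(FPKM + 1), pseudocount 1, with limma 3.58.1 (lmFit, eBayes with trend) in R 4.3.3, with Benjamini-Hochberg adjustment over all unigenes tested and a threshold of 0.05. For interactions and for stage differences in hypothalamus and pituitary the minimum was 5 libraries, and scaling was over the libraries of each fit. Median-of-ratios scaling used 82822 unigenes above 0 in all 12 libraries. Values per library were compared by exact two-sided permutation tests. Relative depth came from ratios of values under 0.15 FPKM. The limma, depth and NOISeq steps were tested on simulated data. The NOISeq program of the study was not at hand, and its rule (probability 0.8 or more, zeros set to 0.5) was written anew. Named unigenes are the 2 highest and 2 lowest limma differences among called unigenes with MG and UG apart in every library and a group mean of at least 10 FPKM on the higher side, 1 contig per cluster. The members and lists were chosen with earlier results of these data known. Cell type marker lists had been written by gene name and none could be used. Alternatives were other scalings, pseudocounts, filters and thresholds, a replicate block, 1 fit over 43 libraries, leaving out each library and the NOISeq rule. MG and UG share replicate numbers but no fish. Figures were drawn with Matplotlib 3.10.9, and SciPy 1.17.1, Numba 0.67.0, NumPy 2.4.6 and pandas 2.3.3 ran under Python 3.11.15.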

Additional observations from a re-analysis of the deposited data

Results flagged for a closer look

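Of 22 sets of libraries of one group examined with Dixon's gap ratio, 3 had a value past its critical value. Chance passes it in about 1 set in 20 for normally distributed values, a rate that need not hold for FPKM values near 0. UG replicate 1 had a relative depth of 0.788, below the other UG libraries. UG replicate 2 had 3.11 FPKM of Unigene73176_All, with the other UG libraries at 0. Beside those zeros any value above 0 would have been flagged. UG replicate 5 had 2.30 FPKM of CL23664.Contig6_All, with the other UG libraries at 0.542 to 0.698 FPKM.

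The difference between males and stage I fish was not the same in the gonad as in the other tissues for many unigenes, by the interaction in limma. Against the hypothalamus it was higher in the gonad for 16985 unigenes and lower for 2269, and against the pituitary higher for 31571 and lower for 2362. On the scaled values these counts were 5655 higher and 4460 lower against the hypothalamus, and 6834 higher and 5676 lower against the pituitary. Within the pituitary as given, 5102 of 80380 unigenes were higher and 23076 lower in MP than in UP, and the interaction as given includes this shift.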

How the results depend on the processing

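From limma, 29007 of 77848 unigenes tested were called as given (24191 higher and 4816 lower in MG). Of the same unigenes, median-of-ratios scaling gave 20436 (10956 higher and 9480 lower) and a log2 difference of 1 or more gave 14796 (12136 and 2660). Other sets of unigenes were tested in 2 alternatives. A filter at 10 FPKM gave 4601 of 10277 tested (3215 and 1386), and the NOISeq rule gave 4933 of 118935 (3153 and 1780). On scaled values with a log2 difference of 1 or more, chosen after seeing the data, 10628 were called (5111 and 5517). With the replicate number as a replicate block 25855 were called. MG and UG share only these numbers, and same-numbered libraries had correlations of deviations of -0.101 to 0.0383. Leaving out each library in turn gave 23688 to 32931 as given and 15731 to 22946 scaled. Scaled interactions called 10115 unigenes for gonad minus hypothalamus (5655 higher and 4460 lower) and 12510 for gonad minus pituitary (6834 and 5676). The median difference was 0.0593 scaled and 0.576 with a pseudocount of 0.1. The MG distance was 0.0975 with Spearman's correlation, and 52 clusters had contigs called in opposite directions at a log2 difference of 1 or more. The direction and call of the 4 named unigenes held in every limma alternative run for them, and no NOISeq result is given for them. They were chosen as the largest differences, which favours this. With no read counts in the table, counting error could not be given, and unigenes below 1 FPKM are the least certain.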
